A study of Mus musculus with 11 samples.

Results

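Tuft cell genes and type 2 alarmin genes were examined in bulk RNA sequencing of mouse gastric corpus mucosa. The genes were 10, chosen by name: the alarmins Il33, Tslp and Il25, the receptor chains Il1rl1, Il4ra and Il13ra1, and the tuft cell genes Dclk1, Trpm5, Pou2f3 and Alox5. All 10 were found among the 34866 genes of the table, and 8 passed the filter on low counts. Tslp and Il25 did not pass it, and they had at most 11 and 8 counts in any sample. The 11 samples fell into 4 genotypes: 2 samples of control, labelled WT, and 3 each of ATP4B-DTR, of GIF-DTR and of GIF/ATP4B-DTR. The lines were built for the ablation of parietal and chief cells. DTR stands for the diphtheria toxin receptor, placed by the line names under the gene of a proton pump subunit made by parietal cells (ATP4B), under that of intrinsic factor, which chief cells make in the mouse (GIF), or under both. The dose of any toxin, the time of collection, the age and the sex of the mice, and whether the controls received toxin, were not given in the sources used here. Samples of a line are numbered here by order of listing, so a number is only a name. Nothing in the labels beyond the titles says that samples came from separate animals, so p-values measure the spread between these samples.

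Tuft cells are rare chemosensory cells of the epithelium. They depend on the transcription factor Pou2f3, signal through the cation channel Trpm5, carry the kinase Dclk1 and make eicosanoids with Alox5. In the gut they are a known source of interleukin-25, which together with interleukin-33 and thymic stromal lymphopoietin (Tslp) activates group 2 innate lymphoid cells, mast cells and type 2 helper T cells. Those cells answer with interleukin-4 and interleukin-13, which act on epithelium through Il4ra and Il13ra1.

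Levels are in counts per mega-count (CPM), scaled with the TMM factors of edgeR (trimmed means of M-values). Library totals ranged from 20.7 to 27.9 M counts, so that 3 counts, taken as the floor, were worth 0.107 to 0.166 CPM. The controls had TMM factors of 0.797 and 0.864, below those of all 9 line libraries (0.947 to 1.12). The summed level of 5 parietal cell genes was 16341 to 17531 CPM among controls, 3219 to 4574 CPM in ATP4B-DTR, 7451 to 9564 CPM in GIF-DTR and 1276 to 2567 CPM in the GIF/ATP4B-DTR line, and that of 4 chief cell genes was 85784 to 192357, 16984 to 61997, 5105 to 22562 and 2820 to 12411 CPM in that order. Ddx3y, a Y-linked gene, stood at 40.9 to 53.3 CPM in both controls, ATP4B-DTR 1 and all GIF/ATP4B-DTR samples, and at 0.0794 CPM or less in ATP4B-DTR 2 and 3 and all GIF-DTR samples. Of 3 other Y-linked genes, Eif2s3y was at or under 0.0787 CPM in those 5 samples, but Kdm5d stood at 0.621 to 2.94 CPM and Uty at 1.63 to 3.31 CPM, against at least 27.1 and 23.5 CPM in the other 6. Genotype and the Y-linked difference therefore cannot be told apart between GIF-DTR and control, whereas GIF/ATP4B-DTR and control were alike in it. In these bulk samples, fewer cells of a type and less RNA per cell cannot be told apart.

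Of the 8 tested genes, 2 passed the threshold in ATP4B-DTR against control, an edgeR adjusted p under 0.05, where 21.6% of all tested genes passed it. Il4ra was lower, as were 9.39% of all genes, and Pou2f3 higher, as were 12.2%. In GIF-DTR against control 4 of 8 were lower (Il1rl1, Dclk1, Trpm5 and Alox5) and none was higher, beside 6.82% of all genes lower, 9.97% higher and 16.8% in either direction. In GIF/ATP4B-DTR 6 of 8 were lower (Il33, Il1rl1, Il4ra, Dclk1, Trpm5 and Alox5) and none was higher, beside 15.4% of all genes lower, 18.2% higher and 33.6% in either direction. With all samples, the share of the 8 genes that passed was close to the background in ATP4B-DTR and above it in GIF-DTR and GIF/ATP4B-DTR, but the counts rested on single samples. With each sample left out in turn they were 0 to 3, 1 to 4 and 2 to 6 of 8. Without control 1 they were 0, 1 and 2, and without control 2 they were 0, 2 and 3. The count was also 0 in ATP4B-DTR without ATP4B-DTR 2, 2 in GIF-DTR without GIF-DTR 3, and 3 in the GIF/ATP4B-DTR line without GIF/ATP4B-DTR 1 or 2. With a term for Y-linked expression it was 0 in GIF-DTR. The median log2 fold change of the 8 was -0.26 for the ATP4B-DTR line, -0.92 for the GIF-DTR line and -0.83 for the GIF/ATP4B-DTR line, where the median of all tested genes was -0.01, -0.01 and -0.04. These comparisons share the same 2 control samples.

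**Figure D1:**
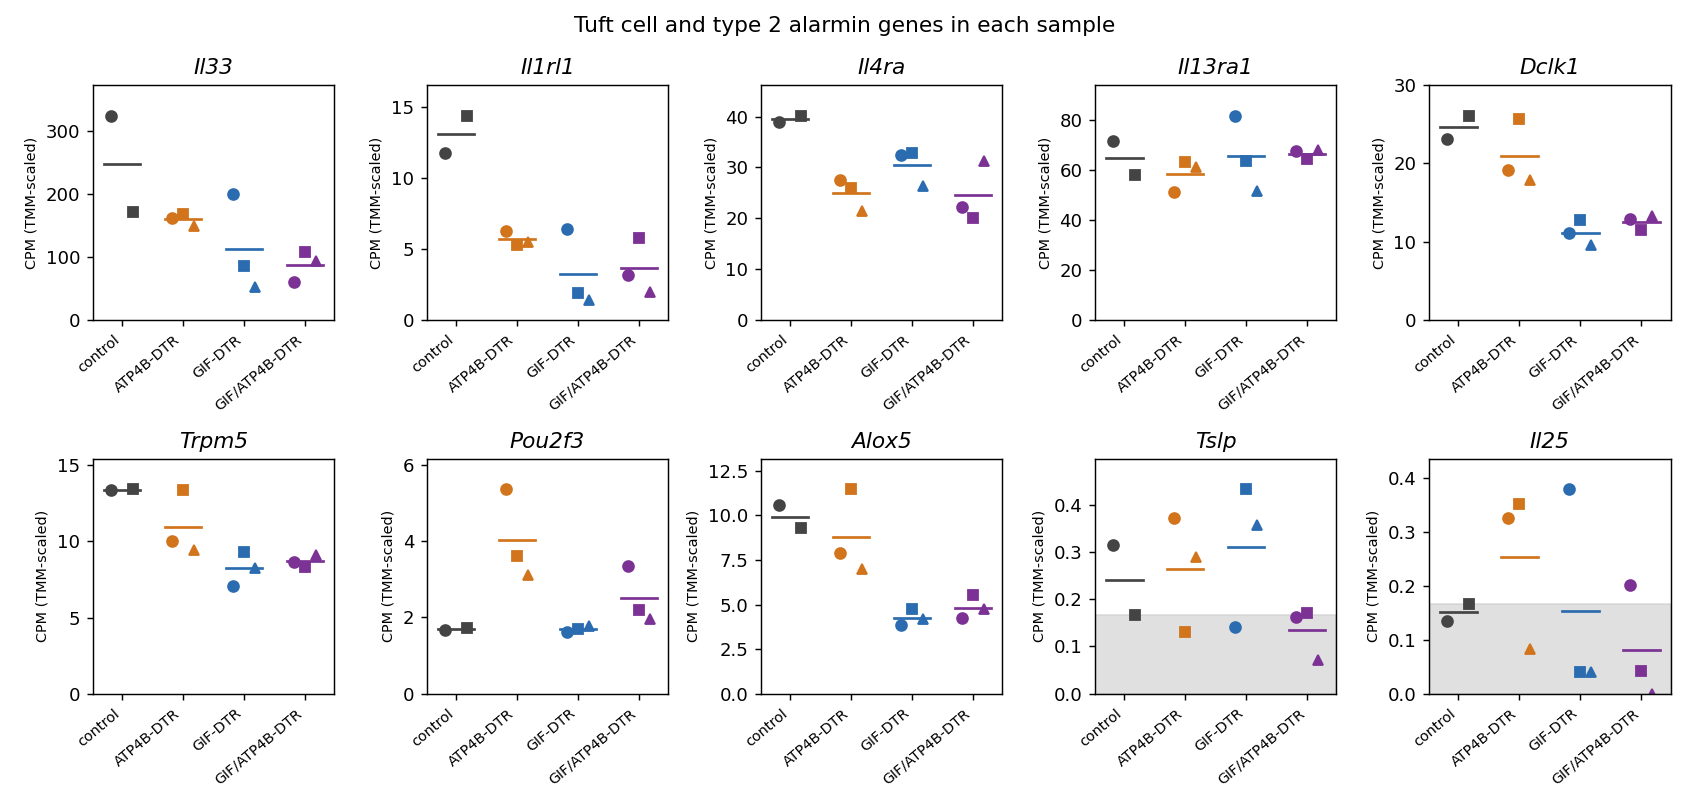
Level of each of the 10 genes in CPM (linear axes from 0) in the 11 samples, by genotype; circles, squares and triangles are samples 1, 2 and 3, and lines are group means. Dclk1 and Alox5 sit lower in all GIF-DTR and GIF/ATP4B-DTR samples than in any control or ATP4B-DTR sample, and Tslp and Il25 lie near the counting floor, shaded up to the highest floor of any library (0.166 CPM).

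Promoter sequence was read for the 7 members that matched the RefSeq table (GRCm38.p6), as 250 bases before each of 10 start sites. The octamer ATGCAAAT, the element that POU factors such as Pou2f3 bind, was searched on both strands because the factor is itself one of the 10 genes. It was found in 3 of the 10 windows, 1 each of Il1rl1, Il33 and Il4ra, and in 1.6% of 32851 windows of that length over all genes. A second element was also searched on both strands, the palindromic element of STAT6 (TTC and GAA with 4 bases of any kind between them), a factor that acts below Il4ra. It was found in 2 of the 10 windows, 1 each of Dclk1 and Il33, and in 5.85% of all windows. The octamer begins 36 bases before the Il1rl1 start, 87 bases before the second Il33 start and 139 bases before the Il4ra start. These are RefSeq starts, and in GENCODE, which gives the gene spans below, Il4ra begins upstream of its match, so that the match lies within the gene there. The windows of Il1rl1 (chr1:40429320-40429569, plus strand) and Il33 (chr19:29945540-29945789, plus strand) are shown since these genes make up the ligand and receptor pair. The capitals mark the octamer, here read on the opposite strand.
Il1rl1: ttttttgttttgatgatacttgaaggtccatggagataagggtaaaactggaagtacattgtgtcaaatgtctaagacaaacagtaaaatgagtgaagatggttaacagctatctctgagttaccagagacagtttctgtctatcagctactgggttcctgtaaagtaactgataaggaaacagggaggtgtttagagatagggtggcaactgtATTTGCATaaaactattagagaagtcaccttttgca
Il33: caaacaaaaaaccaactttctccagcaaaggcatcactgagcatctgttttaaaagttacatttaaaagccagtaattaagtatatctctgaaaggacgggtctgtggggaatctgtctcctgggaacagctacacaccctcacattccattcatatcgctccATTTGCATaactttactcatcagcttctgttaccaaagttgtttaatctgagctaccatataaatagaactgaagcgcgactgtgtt
A match of letters is a description and not a binding site, and the counts do not separate the start sites of a gene.

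Among the alarmins, Il33 was the abundant one. Per kilobase of exon it stood at 86.0 CPM among controls, against 0.181 for Tslp and 0.141 for Il25. The gene spans chr19:29925114-29960718 on the plus strand (GRCm38) and encodes a nuclear cytokine that barrier and stromal cells release when damaged. Its level was 324 and 172 CPM among controls, 162, 168 and 150 among ATP4B-DTR samples, 199, 84.9 and 52.4 among GIF-DTR samples, and 61.0, 107 and 93.7 among GIF/ATP4B-DTR samples. Control 1 was the highest sample, the second control lay near the ATP4B-DTR samples, and GIF-DTR 1 lay within the range of the controls. Il33 fell in the GIF/ATP4B-DTR line by 1.51 on the log2 scale (SE 0.49, edgeR adjusted p = 0.0402), a 2.84-fold lower level. It did not pass in ATP4B-DTR (log2 fold change -0.63, SE 0.49, edgeR adjusted p = 0.393) or in GIF-DTR (-1.15, SE 0.49, edgeR adjusted p = 0.144). The call in the GIF/ATP4B-DTR line was lost when control 1 was left out (-0.98, edgeR adjusted p = 0.231) and in 7 of the 11 fits that each left out 1 sample, namely without control 1, each ATP4B-DTR sample or each GIF/ATP4B-DTR sample. Without GIF-DTR 1, the change in GIF-DTR became -1.86 and passed (edgeR adjusted p = 0.00899).

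Markers of stromal cells, which are among the known sources of Il33, varied between samples of a group. The summed level of 9 fibroblast genes was 61.0 and 628 CPM among controls, 287, 115 and 362 among ATP4B-DTR samples, 822, 247 and 352 among GIF-DTR samples, and 108, 304 and 144 among GIF/ATP4B-DTR samples. The sum of 9 endothelial genes was 19.0 and 84.0 CPM among controls, 16.3 to 26.6 CPM in ATP4B-DTR, 23.6 to 50.2 CPM in GIF-DTR and 11.2 to 20.3 CPM in the GIF/ATP4B-DTR line. Control 1, the sample highest in Il33, was the lowest of all 11 in the fibroblast sum, while GIF-DTR 1 was the highest sample of its line in Il33 and in both sums. None of the 9 fibroblast genes passed in any of the 3 comparisons with control, and 1 endothelial gene (Kdr, a receptor of vascular growth factor) was lower in the GIF/ATP4B-DTR line, beside 21.6%, 16.8% and 33.6% of all genes that passed in the 3 comparisons. The part of these cells in the level of Il33 was not tested.

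Tslp, on chromosome 18, had 7 and 3 counts in the controls, 8, 3 and 7 among ATP4B-DTR samples, 3, 11 and 9 among GIF-DTR samples and 4, 4 and 2 among GIF/ATP4B-DTR samples. Every group held 1 library at or under the floor of 3 counts, and the groups overlapped throughout. Its mean level was 0.240 ± 0.105 CPM in control (SD, n = 2), 0.265 ± 0.122 CPM in ATP4B-DTR, 0.311 ± 0.151 CPM in GIF-DTR and 0.135 ± 0.0550 CPM in the GIF/ATP4B-DTR line (SD, n = 3 each). Il25 (chr14:54932695-54935837, plus strand), the interleukin made by tuft cells, had 3 and 3 counts in the controls, 7, 8 and 2 among ATP4B-DTR samples, 8, 1 and 1 among GIF-DTR samples and 5, 1 and 0 among GIF/ATP4B-DTR samples. It was at or under the floor in both controls, 1 ATP4B-DTR sample, 2 GIF-DTR samples and 2 GIF/ATP4B-DTR samples. Summed over the libraries of a group, the exact 95% interval of the Il25 level was 0.0546 to 0.324 CPM in control, 0.145 to 0.398 CPM in ATP4B-DTR, 0.0668 to 0.256 CPM in GIF-DTR and 0.0289 to 0.171 CPM in the GIF/ATP4B-DTR line, all of which overlap and cover counting error only. In a fit with no filter on low counts neither gene passed in any of the 6 comparisons (edgeR adjusted p = 0.584 to 1 for Tslp and 0.701 to 1 for Il25). Differences in these genes were not detectable at this depth.

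Among the receptor chains, Il1rl1 changed by the most. It encodes ST2, the chain that binds interleukin-33, carried by mast cells and group 2 lymphoid cells and also made as a soluble form, and it spans chr1:40429570-40465415 on the plus strand. Its level was 11.8 and 14.4 CPM among controls, 6.28, 5.31 and 5.51 among ATP4B-DTR samples, 6.39, 1.93 and 1.43 among GIF-DTR samples, and 3.19, 5.77 and 1.99 among GIF/ATP4B-DTR samples. Every line sample lay below both controls, and the lines overlapped with each other. The level was 4.06-fold lower in GIF-DTR (log2 fold change -2.02, SE 0.57, edgeR adjusted p = 0.0351) and 3.60-fold lower in the GIF/ATP4B-DTR line (-1.85, SE 0.56, edgeR adjusted p = 0.0274). In ATP4B-DTR the value was -1.20 (SE 0.56, edgeR adjusted p = 0.155), and it passed without GIF-DTR 1 (edgeR adjusted p = 0.0404) and in a fit of the 2 groups alone (-1.22, edgeR adjusted p = 0.0134). Its deposited counts were fractional in 9 of 11 samples, which adds uncertainty to its level; the source of the fractions was not tested. Each of the 2 calls was lost in 4 of the 11 fits that left out 1 sample: for GIF-DTR without either control or GIF-DTR 2 or 3 (-1.67 to -2.16), and for GIF/ATP4B-DTR without either control or GIF/ATP4B-DTR 1 or 3 (-1.55 to -1.98).

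Of 10 mast cell genes, some passed as lower in the lines and others did not pass. In GIF-DTR every sample lay below both controls in each of the 10. The summed level of the 10 was 256 and 218 CPM among controls, 213, 161 and 40.4 among ATP4B-DTR samples, 94.3, 39.6 and 54.7 among GIF-DTR samples, and 85.9, 146 and 65.9 among GIF/ATP4B-DTR samples. Of the 10, 3 were lower for ATP4B-DTR, 6 for GIF-DTR and 4 for the GIF/ATP4B-DTR line, and none was higher, beside 9.39%, 6.82% and 15.4% of all genes lower. With the Y-linked term the model called 1 of them in ATP4B-DTR and 0 in GIF-DTR, and the GIF-DTR count was 3 without control 1, control 2 or GIF-DTR 3. In the GIF/ATP4B-DTR line it was 2 without control 1. Tpsab1, a tryptase, fell by 2.88 (SE 0.51, edgeR adjusted p = 0.00459) in GIF-DTR and by 1.99 (SE 0.49, edgeR adjusted p = 0.00946) in the GIF/ATP4B-DTR line on the log2 scale. Fcer1a, a chain of the receptor for immunoglobulin E, stood at 3.86 and 2.66 CPM among controls and at 0.157 to 0.284 CPM in GIF-DTR. Cpa3, the mast cell carboxypeptidase, stood at 18.6 and 14.2 CPM among controls, at 1.81 to 6.24 CPM in GIF-DTR and at 5.77 to 8.81 CPM in the GIF/ATP4B-DTR line. Of the 11 fits that left out 1 sample, Fcer1a lost its GIF-DTR call in 2 and Cpa3 in 7, and Cpa3 did not pass in the GIF/ATP4B-DTR line. The mast cell proteases Mcpt1, Mcpt2 and Mcpt4 did not pass in any line. Mcpt1 stood at 64.1 and 42.0 CPM among controls and 83.7, 63.6 and 4.76 among ATP4B-DTR samples, with 3.26 to 16.9 CPM in GIF-DTR and 19.7 to 54.8 CPM in the GIF/ATP4B-DTR line. Mcpt2 stood at 44.5 and 32.5 CPM among controls and 68.1, 52.9 and 12.6 among ATP4B-DTR samples, and Mcpt4 at 1.62 and 1.66 CPM among controls and 3.63, 3.25 and 0.249 among ATP4B-DTR samples. In GIF-DTR Mcpt2 stood at 7.36 to 21.9 CPM and Mcpt4 at 0.590 to 1.51 CPM. For GIF/ATP4B-DTR the ranges were 21.7 to 52.4 CPM and 1.25 to 5.04 CPM. ATP4B-DTR 1 and 2 were thus above both controls in Mcpt2 and Mcpt4, and ATP4B-DTR 3 was below both in all 3 proteases. Kit, the stem cell factor receptor, which interstitial cells of the gut wall also carry, made up 82.1 and 89.1 CPM of the control sums and was lower in all 3 lines. Within GIF-DTR and within GIF/ATP4B-DTR the sample with the highest mast cell sum was also the one with the highest Il1rl1, but ATP4B-DTR 3 had the lowest mast cell sum of its line at an Il1rl1 level within the range of the other samples. That likeness was not particular to mast cell genes. GIF-DTR 1 and GIF/ATP4B-DTR 2 were also highest of their lines in the fibroblast and endothelial sums. The same held for the sum of 7 smooth muscle genes, at 2604 and 653 CPM. In control 1 and control 2 that sum was 388 and 2231 CPM. The part of mast cells in the level of Il1rl1 was not tested.

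**Figure D2:**
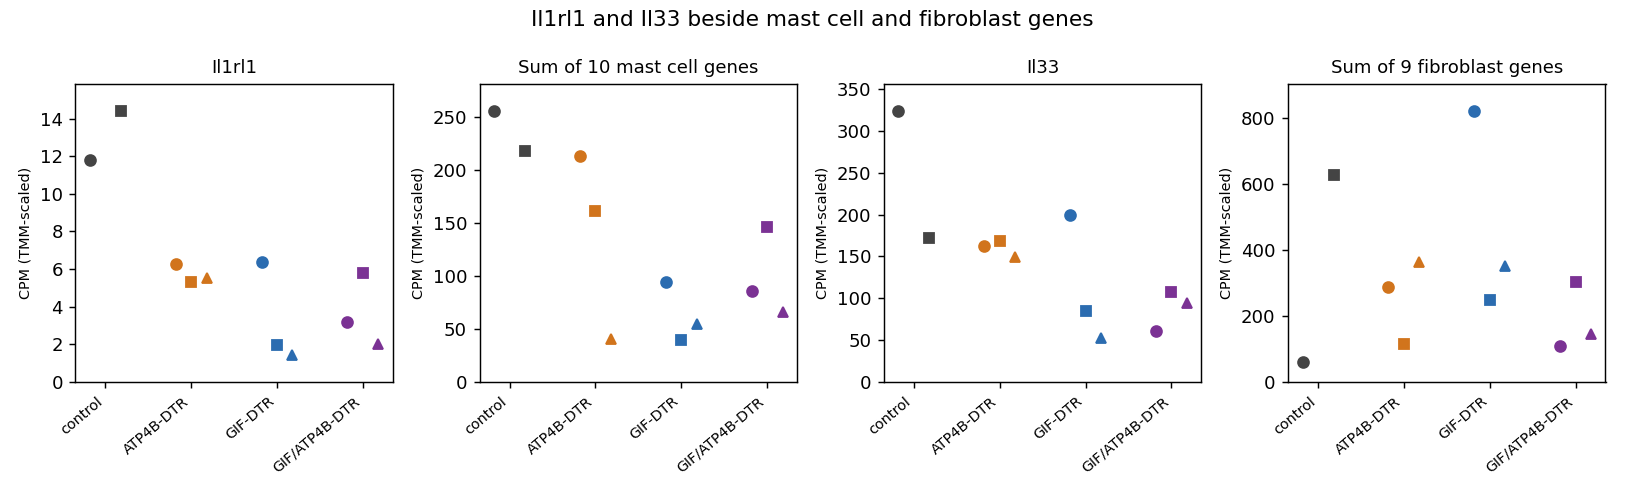
Il1rl1, the sum of 10 mast cell genes, Il33 and the sum of 9 fibroblast genes in CPM (linear axes from 0) in each sample by genotype; circles, squares and triangles are samples 1, 2 and 3. Both controls are highest in Il1rl1 and in the mast cell sum, while control 1 is highest in Il33 and lowest in the fibroblast sum.

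Il4ra, the chain shared by the interleukin-4 and interleukin-13 receptors (chr7:125552120-125579474, plus strand), stood at 38.8 and 40.2 CPM among controls, 27.5, 25.9 and 21.5 among ATP4B-DTR samples, 32.5, 32.8 and 26.3 among GIF-DTR samples, and 22.3, 20.1 and 31.2 among GIF/ATP4B-DTR samples. All 9 line samples were below both controls. Il4ra fell by 0.66 in ATP4B-DTR (SE 0.19, edgeR adjusted p = 0.0281) and by 0.69 in the GIF/ATP4B-DTR line (SE 0.19, edgeR adjusted p = 0.0161) on the log2 scale, each about 1.6-fold (1.58 and 1.61). In GIF-DTR the value was -0.37 (SE 0.19, edgeR adjusted p = 0.206). The ATP4B-DTR call was lost without either control or ATP4B-DTR 2 or 3, and the GIF/ATP4B-DTR call without either control or GIF/ATP4B-DTR 2. An annotated antisense gene, Gm44876, overlaps 571 bases of Il4ra exons, and the strand setting of the counting was not given in the sources used here.

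Il13ra1, the chain that pairs with Il4ra to bind interleukin-13 (chrX:36112110-36171259, plus strand), did not pass in any comparison. It stood at 71.7 and 58.0 CPM among controls, 51.2, 63.2 and 61.2 among ATP4B-DTR samples, 81.8, 63.7 and 51.5 among GIF-DTR samples, and 67.6, 64.3 and 68.0 among GIF/ATP4B-DTR samples. The ranges of the controls and of each line overlapped. Against control the log2 fold change was -0.15 for ATP4B-DTR (95% interval -0.58 to 0.28), 0.02 in GIF-DTR (-0.41 to 0.45) and 0.04 in the GIF/ATP4B-DTR line (-0.39 to 0.47). Per kilobase it was the second most abundant of the 10 genes in the controls, at 17.5 CPM, ahead of Il4ra at 6.58 CPM.

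The tuft cell genes Dclk1, Trpm5 and Alox5 were lower in GIF-DTR and GIF/ATP4B-DTR, while Pou2f3 was not. Dclk1, a kinase bound to microtubules that marks tuft cells (chr3:55242364-55539068, plus strand), stood at 23.2 and 26.1 CPM among controls, 19.2, 25.7 and 17.9 among ATP4B-DTR samples, 11.1, 12.7 and 9.56 among GIF-DTR samples, and 12.9, 11.5 and 13.3 among GIF/ATP4B-DTR samples. The 6 samples of GIF-DTR and GIF/ATP4B-DTR lay below all 5 others. The level was 2.21-fold lower in GIF-DTR (log2 fold change -1.14, SE 0.18, edgeR adjusted p = 0.00306) and 1.96-fold lower in the GIF/ATP4B-DTR line (-0.97, SE 0.18, edgeR adjusted p = 0.00206). In ATP4B-DTR it was -0.24 (SE 0.18, edgeR adjusted p = 0.387). The calls in GIF-DTR and GIF/ATP4B-DTR held in each of the 11 fits that left out 1 sample.

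Alox5, the 5-lipoxygenase that begins leukotriene synthesis (chr6:116410077-116461178, minus strand), had a like order of samples. It stood at 10.6 and 9.31 CPM among controls, 7.87, 11.5 and 7.0 among ATP4B-DTR samples, 3.83, 4.76 and 4.21 among GIF-DTR samples, and 4.24, 5.51 and 4.74 among GIF/ATP4B-DTR samples. Again the 6 samples of GIF-DTR and GIF/ATP4B-DTR lay below all others. Alox5 was 2.33-fold lower in GIF-DTR (log2 fold change -1.22, SE 0.25, edgeR adjusted p = 0.00857) and 2.06-fold lower in the GIF/ATP4B-DTR line (-1.04, SE 0.25, edgeR adjusted p = 0.00753), with -0.18 (SE 0.25, edgeR adjusted p = 0.638) in ATP4B-DTR. The GIF/ATP4B-DTR call held in all 11 fits that left out 1 sample, and the GIF-DTR call was lost without control 1 (-1.12, edgeR adjusted p = 0.0576).

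Trpm5, the channel through which tuft cells depolarise (chr7:143069153-143094642, minus strand), stood at 13.4 and 13.4 CPM among controls, 10.1, 13.4 and 9.44 among ATP4B-DTR samples, 7.10, 9.32 and 8.25 among GIF-DTR samples, and 8.63, 8.29 and 9.12 among GIF/ATP4B-DTR samples. ATP4B-DTR 2 reached the control level, and the 6 samples of GIF-DTR and GIF/ATP4B-DTR lay below all others. The change was smaller than that of Dclk1: -0.70 in GIF-DTR (SE 0.19, edgeR adjusted p = 0.0286), -0.63 in the GIF/ATP4B-DTR line (SE 0.19, edgeR adjusted p = 0.0254) and -0.29 in ATP4B-DTR (SE 0.19, edgeR adjusted p = 0.309). Whether the changes of the 2 genes differ was not tested. Genes on the opposite strand overlap exons of both, Tssc4 over 220 bases of Trpm5 and Gm42609 and Gm21954 over 87 and 27 bases of Dclk1. Trpm5 lost its GIF-DTR call without either control or GIF-DTR 1 or 3, and its GIF/ATP4B-DTR call without either control or GIF/ATP4B-DTR 1 or 2.

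With a term for Y-linked expression in the model, none of the 4 genes lower in GIF-DTR passed. Dclk1 was then -1.29 (edgeR adjusted p = 0.0538), Alox5 -1.40 (0.102), Trpm5 -0.84 (0.18) and Il1rl1 -1.87 (0.334). Without the term the values were -1.14, -1.22, -0.70 and -2.02 in that order. Within a genotype the term varied mainly in ATP4B-DTR, so it rests on ATP4B-DTR 1 against ATP4B-DTR 2 and 3. It therefore cannot separate genotype from the Y-linked difference in GIF-DTR, and no conclusion is drawn from the lost calls. In GIF/ATP4B-DTR, where Y-linked genes were expressed as in the controls, the same term left 5 of the 6 genes lower, and Il33 was -1.51 with an edgeR adjusted p of 0.0579. In ATP4B-DTR, whose samples were mixed in Y-linked expression, Il4ra was -0.53 with the term (edgeR adjusted p = 0.205).

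Pou2f3, the transcription factor on which tuft cells depend (chr9:43123939-43210369, minus strand), was higher in ATP4B-DTR. It stood at 1.66 and 1.72 CPM among controls, 5.35, 3.60 and 3.11 among ATP4B-DTR samples, 1.61, 1.69 and 1.79 among GIF-DTR samples, and 3.35, 2.18 and 1.96 among GIF/ATP4B-DTR samples. All ATP4B-DTR and GIF/ATP4B-DTR samples lay above the controls, and GIF-DTR overlapped with them. The level was 2.37-fold higher in ATP4B-DTR (log2 fold change 1.25, SE 0.38, edgeR adjusted p = 0.0357). It was 0.01 in GIF-DTR (SE 0.37, edgeR adjusted p = 0.994) and 0.56 in the GIF/ATP4B-DTR line (SE 0.37, edgeR adjusted p = 0.264). The ATP4B-DTR call was lost in 6 of the 11 fits that left out 1 sample, those without either control, ATP4B-DTR 1 or 2, or GIF-DTR 2 or 3, with values of 0.97 to 1.32, and in a fit of the 2 groups alone (1.23, edgeR adjusted p = 0.088).

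**Figure D3:**
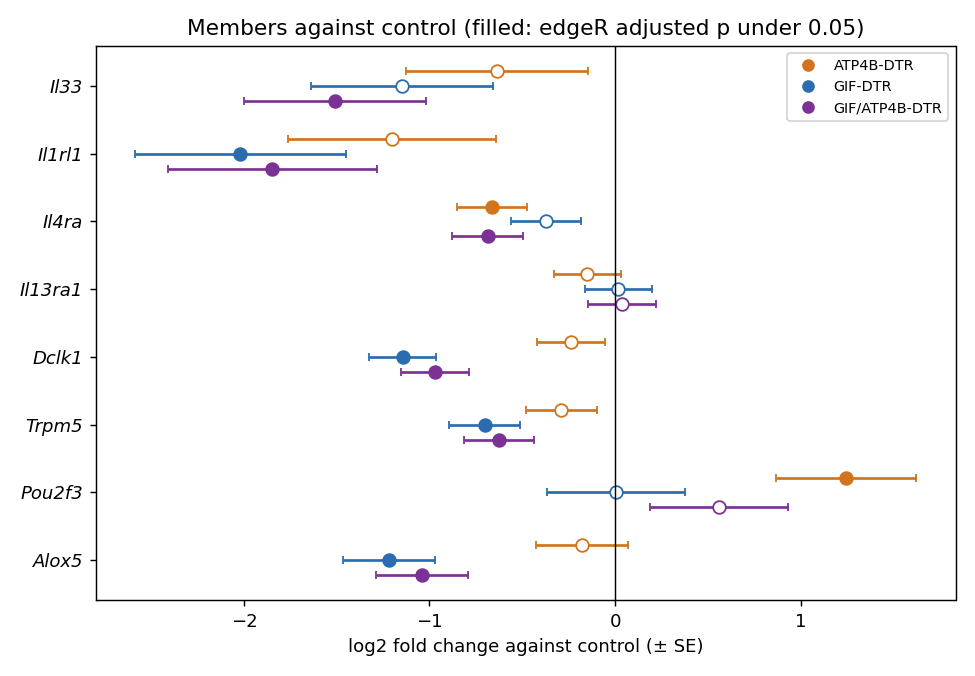
Log2 fold change of the 8 tested genes against control in each line, with bars for ± 1 SE; filled points passed an edgeR adjusted p under 0.05. Dclk1 and Alox5 lie near -1 in GIF-DTR and GIF/ATP4B-DTR and near 0 in ATP4B-DTR, and Pou2f3 is the only filled point to the right of 0.

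Compared directly, GIF-DTR and ATP4B-DTR differed in 1 of the 8 genes, where 0.49% of all tested genes passed (0.403% higher and 0.0873% lower in GIF-DTR). Dclk1 was 1.88-fold lower in GIF-DTR (log2 fold change -0.91, SE 0.17, edgeR adjusted p = 0.038), and its 3 samples there lay below all 3 ATP4B-DTR samples. That call was lost in 9 of the 11 fits that left out 1 sample, in all but those without ATP4B-DTR 3 or GIF/ATP4B-DTR 1, with values of -0.73 to -1.02. Among the samples low in Ddx3y alone it was -0.99 (edgeR adjusted p = 0.216). Alox5 was -1.04 (SE 0.23, edgeR adjusted p = 0.089), Pou2f3 -1.24 (SE 0.33, edgeR adjusted p = 0.169) and Trpm5 -0.41 (SE 0.17, edgeR adjusted p = 0.449). Between GIF/ATP4B-DTR and ATP4B-DTR 0 of the 8 genes passed in edgeR, as did 0 of all 14889 (0%), with 1554 at an unadjusted p under 0.05. With the DESeq2 Wald test 277 genes passed in that comparison, Dclk1 (-0.73, adjusted p = 0.0152) and Alox5 (-0.86, adjusted p = 0.0335) among them. Between GIF/ATP4B-DTR and GIF-DTR 0 of the 8 passed, beside 2.53% of all genes (0.336% higher and 2.19% lower). There Dclk1 differed by 0.17 (95% interval -0.22 to 0.57) and Alox5 by 0.18 (-0.36 to 0.71).

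The ratio of tuft cell genes to each other within a library, which no scaling between libraries affects, also varied. For every 100 Dclk1 counts there were 7.17 and 6.58 Pou2f3 counts in the controls, 27.9, 14.0 and 17.4 among ATP4B-DTR samples, 14.5, 13.3 and 18.7 among GIF-DTR samples and 25.9, 19.0 and 14.8 among GIF/ATP4B-DTR samples. All 9 line samples lay above both controls in this ratio. For every 100 Dclk1 counts there were 51.4 to 57.8 Trpm5 counts in the controls and ATP4B-DTR, and 63.8 to 86.3 in GIF-DTR and GIF/ATP4B-DTR, with no overlap. Alox5 kept within 32.7 to 48.0 counts per 100 of Dclk1 over all 11 samples, with the genotypes overlapping. These ratios were chosen with the levels known and were not tested.

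**Figure D4:**
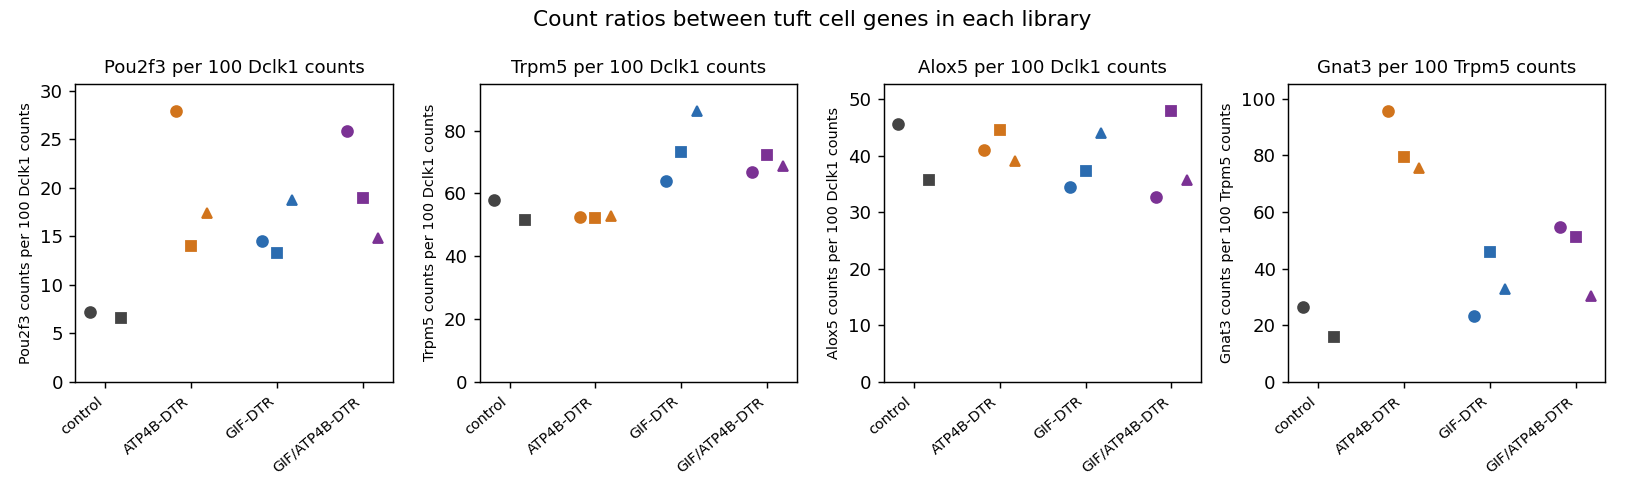
Count ratios between tuft cell genes in each library by genotype (linear axes from 0; circles, squares and triangles are samples 1, 2 and 3). Pou2f3 per 100 Dclk1 counts is lowest in the 2 controls (6.58 and 7.17), Trpm5 per 100 Dclk1 counts is higher in GIF-DTR and GIF/ATP4B-DTR, Alox5 per 100 Dclk1 counts overlaps throughout, and Gnat3 per 100 Trpm5 counts is highest in ATP4B-DTR (75.4 to 95.8).

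A wider list of 32 tuft cell genes, the 4 above included, was counted in the same way. Of the 28 that were tested, 3 were higher and 1 lower in ATP4B-DTR, 0 higher and 6 lower in GIF-DTR, and 1 higher and 7 lower in the GIF/ATP4B-DTR line. These 4, 6 and 8 genes of 28 stand beside 21.6%, 16.8% and 33.6% of all genes in either direction. That is a share below the background in ATP4B-DTR and GIF/ATP4B-DTR and slightly above it in GIF-DTR. By direction, the 6 and 7 lower genes in GIF-DTR and GIF/ATP4B-DTR stand beside 6.82% and 15.4% of all genes lower, shares above the background. The 3 higher genes in ATP4B-DTR stand beside 12.2% higher. Dclk1, Trpm5 and Alox5 are among both the 6 and the 7, and Pou2f3 is among the 3. These shares therefore partly repeat the counts of the genes above and are not separate from them. The median log2 fold change of the 28 was 0.15, -0.48 and -0.49 in that order. Gnat3, the taste G protein alpha subunit, stood at 3.55 and 2.11 CPM among controls, 9.64, 10.6 and 7.12 CPM in ATP4B-DTR, 1.66 to 4.29 CPM in GIF-DTR and 2.78 to 4.72 CPM in the GIF/ATP4B-DTR line. Gnat3 rose by 1.68 on the log2 scale in ATP4B-DTR (SE 0.43, edgeR adjusted p = 0.0174), a call lost without control 2. Per 100 Trpm5 counts there were 15.7 to 26.5 Gnat3 counts in the controls and 75.4 to 95.8 in ATP4B-DTR.

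Itpr2, a calcium release channel downstream of taste receptors that many secretory cells also carry, was lower in all 3 lines. It fell by 1.60, 1.12 and 2.84 on the log2 scale in the lines ATP4B-DTR, GIF-DTR and then GIF/ATP4B-DTR, from 75.4 and 76.5 CPM among controls to 8.69 to 12.8 CPM in the GIF/ATP4B-DTR line. Sh2d7, an adaptor of tuft cells, stood at 8.80 and 7.71 CPM among controls and fell by 1.07 in GIF-DTR and by 0.76 in the GIF/ATP4B-DTR line. Plcb2, the phospholipase of the taste cascade, fell by 1.37 in the GIF/ATP4B-DTR line, to 0.463 to 1.17 CPM from 2.07 and 2.61 CPM. Ptgs1, the constitutive cyclooxygenase, fell by 1.40 in the GIF/ATP4B-DTR line, but its controls stood at 4.67 and 17.6 CPM and without control 2 the value was -0.16 (edgeR adjusted p = 0.837), and the call was lost in 6 of the 11 fits that left out 1 sample. Itpr2 passed in all 11 fits that left out 1 sample in each line, whereas Sh2d7 lost its calls in 3 and 5 of them and Plcb2 in 4. The rest of the count, named after its values were seen, was Spib, lower in GIF-DTR, and Ltc4s, the leukotriene C4 synthase, higher in the ATP4B-DTR and GIF/ATP4B-DTR lines, calls lost in 6 of the 11 fits for Spib and in 4 for Ltc4s in each line. When 1 sample was left out, the number of list genes that passed was 1 to 5 in ATP4B-DTR (1 without control 2), 3 to 6 in GIF-DTR (3 without control 2 or GIF-DTR 3) and 3 to 8 in the GIF/ATP4B-DTR line (3 without control 2, and 4 without any 1 of the GIF/ATP4B-DTR samples). With the Y-linked term 1 list gene passed in GIF-DTR.

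**Figure D5:**
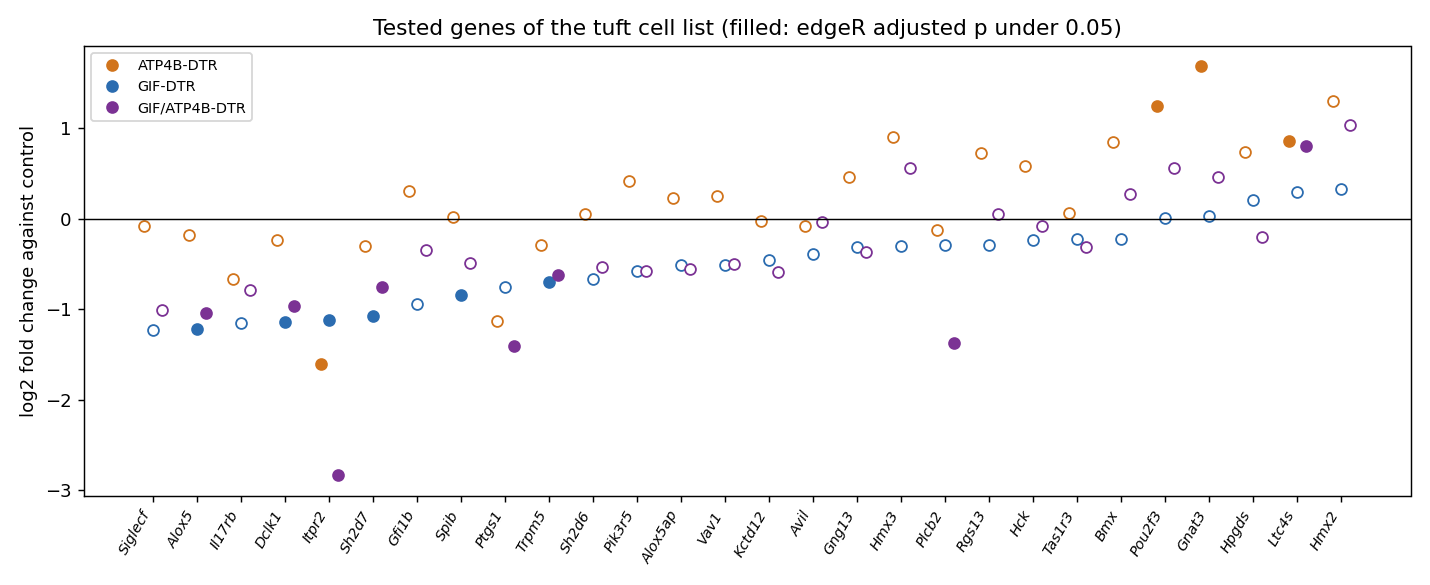
Log2 fold change against control of the 28 tested genes of the tuft cell list in each line, ordered by the GIF-DTR value; filled points passed an edgeR adjusted p under 0.05. The filled points of GIF-DTR all lie below 0, and those of ATP4B-DTR lie above 0 for Pou2f3, Gnat3 and Ltc4s and below 0 for Itpr2.

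The eicosanoid genes, to which Alox5 belongs, were counted likewise. Of 16, 4 were higher and 0 lower in ATP4B-DTR, 1 higher and 1 lower in GIF-DTR, and 4 higher and 3 lower in the GIF/ATP4B-DTR line. Beside the 21.6%, 16.8% and 33.6% of all genes that passed, the shares for ATP4B-DTR and GIF-DTR were near the background and that for GIF/ATP4B-DTR was above it. By direction, the 4 higher genes stand beside 12.2% of all genes higher in ATP4B-DTR and 18.2% in the GIF/ATP4B-DTR line, again above the background. Pla2g4a, the phospholipase that frees arachidonic acid, stood at 54.5 and 53.2 CPM among controls and rose by 1.28 in ATP4B-DTR and 1.06 in the GIF/ATP4B-DTR line on the log2 scale. Ptges3, a prostaglandin E synthase and heat shock cochaperone, was higher in all 3 lines and Ptges2 in ATP4B-DTR and GIF/ATP4B-DTR. Of the 11 fits that left out 1 sample, Ptges3 lost its call in 4 for ATP4B-DTR and 9 for GIF-DTR (edgeR adjusted p up to 0.19) but in 0 for GIF/ATP4B-DTR, Ptges2 in 4 for ATP4B-DTR and 7 for GIF/ATP4B-DTR (up to 0.327), and Pla2g4a in 2 for each of its lines. Alox5ap, which presents arachidonic acid to Alox5, stood at 5.79 and 7.32 CPM among controls, 5.34 to 9.03 CPM in ATP4B-DTR, 3.97 to 5.77 CPM in GIF-DTR and 4.36 to 4.6 CPM in the GIF/ATP4B-DTR line and passed in none. When 1 sample was left out, the number that passed in either direction was 0 to 4 for ATP4B-DTR, 1 to 2 for GIF-DTR and 2 to 7 for GIF/ATP4B-DTR; the fit without control 2 gave 0, 1 and 2, the lowest count of each line, which in GIF-DTR other fits also gave. With the Y-linked term it was 1 for ATP4B-DTR and 0 for GIF-DTR.

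Among 21 type 2 cytokines and receptor chains, 14 were tested, and 3, 2 and 4 were lower in the lines ATP4B-DTR, GIF-DTR and then GIF/ATP4B-DTR, with none higher. These counts of 14 stand beside 9.39%, 6.82% and 15.4% of all genes lower, and 21.6%, 16.8% and 33.6% in either direction. The shares were above the former and near or below the latter, but the counts include Il33, Il1rl1 and Il4ra, already counted above. Outside the 10 genes the lower ones were Il9r, the interleukin-9 receptor chain, in all 3 lines and Il7r, the interleukin-7 receptor chain, in ATP4B-DTR. Il9r stood at 0.763 and 1.16 CPM among controls and at 0.0828 to 0.275 CPM in the lines, close to the floor, and of the 11 fits that left out 1 sample its call was lost in 5 for GIF-DTR (edgeR adjusted p up to 0.18) and in 1 for each of the other lines. Il7r stood at 0.135 and 1.5 CPM among controls, and its call was lost in 8 of those 11 fits (edgeR adjusted p up to 0.653, without control 2). The cytokines themselves were scarce: Il4 was at 0.0807 to 0.746 CPM over all 11 samples, Il5 at or under 0.0931 CPM and Il13 at or under 0.176 CPM, with 0 Il13 counts in all GIF-DTR and GIF/ATP4B-DTR libraries. Of 15 genes of group 2 lymphoid and type 2 helper cells, 8 were tested, and 2 were lower in each line with none higher. Beside them 9.39%, 6.82% and 15.4% of all genes were lower, and 21.6%, 16.8% and 33.6% passed in either direction. Besides Rora, the lower gene was Il7r in ATP4B-DTR and Il1rl1 in the other lines, both already counted above. Gata3, the defining factor of these cells, was at or under 0.610 CPM in every sample. Rora, which epithelial and stromal cells also carry, was lower in all 3 lines (-1.55, -1.41 and -2.57), calls lost in 1, 2 and 0 of those 11 fits.

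Of 15 signalling genes below these receptors, Jak1 was lower in ATP4B-DTR (-0.50) and GIF/ATP4B-DTR (-0.55), Socs1, an inhibitor of cytokine signalling, was higher in ATP4B-DTR (1.79), and Irak1 and Traf6, which act below Il1rl1, were lower in the GIF/ATP4B-DTR line (-0.33 and -0.38). Of the 11 fits that left out 1 sample, Socs1 and Irak1 lost these calls in 9 each, Traf6 in 6, and Jak1 in 4 in ATP4B-DTR and 1 in the GIF/ATP4B-DTR line. None of the 15 passed in GIF-DTR in edgeR, where 16.8% of all genes passed in either direction. The 2 of 15 in ATP4B-DTR, 1 in each direction, stand beside 21.6% of all genes in either direction, and the 3 lower of 15 in the GIF/ATP4B-DTR line beside 15.4% lower and 33.6% in either direction. Stat6, the factor that interleukin-4 and interleukin-13 activate, stood at 108 and 80.1 CPM among controls and 70.5 to 99.9 CPM in the lines. Of 18 genes known to respond to type 2 cytokines 13 were tested, and Clca1, a goblet cell protein, was the one that was higher, in ATP4B-DTR, where 12.2% of all genes were higher. That count of 1 is below the background and is no result about the list. Clca1 stood at 127 and 44.1 CPM among controls, 1822, 3423 and 540 among ATP4B-DTR samples, 59.3, 154 and 27.9 among GIF-DTR samples, and 377, 248 and 175 among GIF/ATP4B-DTR samples. The change in ATP4B-DTR was 4.49 (SE 1.08, edgeR adjusted p = 0.0201), and it did not pass without either control (3.92 and 5.45). Ccl11, an attractant of eosinophils, was lower in the GIF/ATP4B-DTR line (-3.34), but -0.52 without control 2 (edgeR adjusted p = 0.77), 1 of 3 such fits in which the call was lost. Retnla, another gene of the list, did not pass. Of 8 eosinophil genes 3 were tested, and none passed against control. Of their defining genes Epx had 0 counts in every sample and Prg2 0 to 6, while Ccr3, the receptor for Ccl11, had 0 and 7 counts in the controls, 2, 29 and 5 among ATP4B-DTR samples, 1, 19 and 30 among GIF-DTR samples and 0, 2 and 3 among GIF/ATP4B-DTR samples. Siglecf, a lectin of eosinophils that is also on the tuft cell list, had 38.9 to 150 counts, and Ear2 0 to 45.

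Over the 11 samples, the genes whose log2 CPM was most like that of a member were found among all tested genes, as a description over samples that share genotypes. For Dclk1 they were Adamts15 (r = 0.950), Alox5 (0.948) and Shisa6 (0.944), and for Alox5 they were Dclk1, Slc5a1 (0.934) and Siglecf (0.933). For Trpm5 they were Map3k2 (0.940), Olfr509 (0.933) and Sh2d7 (0.933), and for Pou2f3 Pigr (0.942), Hebp2 (0.938) and Pbld2 (0.935). The genes most like Il33 were Camk4 (0.912), Gnl3l (0.892) and Cerk (0.884), and among those most like Il1rl1 were Tvp23b (0.923) and Slc37a3 (0.898). For Il4ra they were Vasn (0.940), Phactr2 (0.939) and Ssh1 (0.924), and for Il13ra1 Rab23 (0.907), Ppp1r3b (0.883) and Fam107b (0.867). Dclk1 and Alox5 were thus each among the 3 genes most like the other, with r = 0.563 once each sample was taken as its deviation from its genotype mean.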

How the data were processed

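The deposited table holds the authors' expected counts per gene, and 30.7% of its nonzero entries are fractional. The genome build was mm10 per the submitters' processing notes, and libraries were made with a stranded kit per the labels' protocols. The aligner, the quantifier and the strand setting were not given in the sources used here. Identifiers were matched to symbols for 99.2% of genes, and lengths came from GENCODE M21 exons. Counts were rounded and kept by filterByExpr, which left 14889 of 34866 genes. One quasi-likelihood model with a coefficient per genotype was fitted to all 11 samples with edgeR 4.0.16 in R 4.3.3. P-values were adjusted by Benjamini-Hochberg over all tested genes within a comparison, and the threshold was 0.05. The common biological coefficient of variation was 26.6%. Intervals of fold changes use the SE with 7 residual degrees of freedom, and those of counts are exact Poisson intervals. The rule for naming genes of a list took up to 4 with the largest change among those that passed against control, plus its first 3 genes. Not all genes so picked are printed, and some were named outside the rule, such as Mcpt2, Mcpt4, Sh2d7, Spib, Ptges2 and Ptges3. For each tested member, up to 3 of the genes most alike are named. Members and lists were chosen with earlier results of these data known. Alternatives used other scaling, no filter, DESeq2 1.42.0, fewer groups, a Y-linked term, and each sample left out.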

Additional observations from a re-analysis of the deposited data

Results flagged for a closer look

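Dclk1 is picked out because a test between the lines passed: that of GIF-DTR against ATP4B-DTR gave a log2 fold change of -0.91 (SE 0.17, edgeR adjusted p = 0.038), with 11.1 ± 1.59 CPM in GIF-DTR and 20.9 ± 4.17 CPM in ATP4B-DTR (SD, n = 3 each). The call was lost in 9 of the 11 fits that left out 1 sample (edgeR adjusted p up to 0.177). Over those 11 fits the log2 fold change was -0.73 to -1.02. It was also lost with the Y-linked term, with only the 2 groups compared and with only the samples low in Ddx3y, that is, the adjusted p was then not under 0.05.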

How the results depend on the processing

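The number of the 8 genes that passed against control was 2 for the ATP4B-DTR line, 4 for the GIF-DTR line and 6 for the GIF/ATP4B-DTR line. With each sample left out in turn it was 0 to 3, 1 to 4 and 2 to 6. In ATP4B-DTR it was 1 with no filter on low counts and 1 with a term for Y-linked expression, and in GIF-DTR it was 0 with that term, where 480 of all genes passed in place of 2500. In ATP4B-DTR that term, which rests mainly on ATP4B-DTR 1 against ATP4B-DTR 2 and 3, left 1960 of 3211. Between GIF-DTR and ATP4B-DTR it was 1, and 0 to 1 with a sample left out, 3 with the DESeq2 Wald test, and 0 each with the Y-linked term, with only the 2 groups compared and with only samples low in the Y-linked gene Ddx3y; over all genes the 73 became 361, 21 and 30 with DESeq2, the Y-linked term and the samples low in Ddx3y. Between GIF/ATP4B-DTR and ATP4B-DTR it was 0, also with every sample left out in turn, and 2 with DESeq2, and all genes went from 0 to 277 with DESeq2 and 57 with no filter. Between GIF/ATP4B-DTR and GIF-DTR it was 0 throughout, while all genes went from 376 to 936 with DESeq2 and 15 with the Y-linked term. The causes were not tested.

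Some genes changed sign, and not all of them were near 0. Between GIF/ATP4B-DTR and GIF-DTR the main values of Pou2f3 and Il33 were 0.56 and -0.36. Pou2f3 in GIF-DTR against control was -0.012 with DESeq2 size factors, -0.0034 without the 50 most abundant genes in the scaling, -0.0084 with DESeq2, -0.0016 with only 2 groups and -0.040 to 0.040 with a sample left out. Il13ra1 in GIF-DTR was -0.24 with the Y-linked term. Between GIF/ATP4B-DTR and GIF-DTR, Il13ra1 was -0.0026 without the 50 most abundant genes, -0.0046 with no filter and -0.0052 with 2 groups, and Pou2f3 was -0.14 with the Y-linked term. With a sample left out Il13ra1 ranged from -0.30 to 0.015 (ATP4B-DTR), -0.17 to 0.18 (GIF-DTR) and -0.11 to 0.20 (GIF/ATP4B-DTR) against control, from -0.023 to 0.32 between GIF-DTR and ATP4B-DTR, and from -0.15 to 0.21 between GIF/ATP4B-DTR and GIF-DTR. In the last comparison Il33 ranged from -0.72 to 0.35, Il1rl1 from -0.32 to 1.11 and Trpm5 from -0.017 to 0.18, and Il4ra ranged from -0.23 to 0.10 between GIF/ATP4B-DTR and ATP4B-DTR. None of these values passed. No paired analysis was possible because only the controls carry replicate numbers in their titles. With 2 controls, each control enters every comparison with them. Tslp and Il25 had at most 11 and 8 counts in any sample, too few for the filter. The settings applied to the list genes were chosen after seeing the data.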
